A study of Drosophila melanogaster with 12 samples.

Results

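LTR retrotransposons are mobile elements that copy themselves through an RNA intermediate, and the rows here name single copies in the Drosophila melanogaster genome. Whether these flies carry each named copy was not tested. The members were the rows of the count table whose name gives a copy of roo, copia, 297, 412, 17.6, mdg1, mdg3, opus, diver or another listed family, or of any family whose name starts with gypsy, invader or Stalker. There were 1304 such insertions among 23793 rows, in 49 families, out of 5876 rows of transposable elements of all kinds. The rule also lists Max-element, and no row of the count table has that name. The rule used no measured value.

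The RNA came from heads of male flies aged 3 days, 50 heads to a replicate, in 4 groups of 3 libraries. In each group nSyb, a pan-neuronal driver, expressed a hairpin RNA that triggers RNA interference: against mCherry (group NTC IR-1), dYEATS2 (dYEATS2-IR), Luciferase (NTC IR-2) or dENL/AF9 (dENL/AF9-IR). The fly has no mCherry or Luciferase gene, so both NTC groups are non-targeting controls that carry the same driver, while the other groups target readers of acylated histones. The word young stands in the titles of dENL/AF9-IR and of NTC IR-2 as well. The hairpin acts in neurons, but a head also holds glia, fat body, photoreceptors and cuticle, and in such bulk RNA fewer cells of a type and less RNA per cell cannot be told apart.

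An LTR retrotransposon has a long terminal repeat at each end, a promoter in the first repeat, and genes for Gag, which forms the particle, and for Pol, which holds the reverse transcriptase and integrase. The gypsy-like families (gypsy, 297, 17.6, 412, mdg1, mdg3, blood, opus, HMS-Beagle, Burdock, Tirant and others) are the most numerous in the fly. Some of them, gypsy and Tirant included, also carry an envelope gene. copia and 1731 belong to the copia-like group, and roo and diver to the BEL/Pao group. In the gonad they are held down by piRNAs, short RNAs loaded into Piwi proteins, and in somatic tissue, neurons included, mainly by siRNAs loaded into AGO2.

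Each group name below means the libraries labelled so in the header of the count table, because the deposited tables disagree. The normalized table holds the counts of NTC IR-2 under the name NTC IR-1, those of dENL/AF9-IR under dYEATS2-IR, those of dYEATS2-IR under NTC IR-2, and those of NTC IR-1 under dENL/AF9-IR. Under the exchanged name a single constant per library linked the tables for 100% of the rows with counts in both. Under a library's own name this held for at most 0.0734%. The files do not settle which names are right. The transcripts targeted by the hairpins did not pass the test under either set of names. D12, the gene of dYEATS2, stood at 8.83 ± 0.281 CPM in dYEATS2-IR and 9.05 ± 0.966 in NTC IR-1 (SD, n = 3; edgeR's quasi-likelihood test, adjusted p = 0.919). For ear, the gene of dENL/AF9, the levels were 40.6 ± 2.92 CPM in dENL/AF9-IR and 42.0 ± 7.36 in NTC IR-2 (SD, n = 3; edgeR, adjusted p = 1). Under the names of the normalized table ear would be the lower one in dENL/AF9-IR, at 32.0 ± 1.12 CPM and 37.6 ± 2.20 in its control, which did not pass the test (log2 0.23 for the second over the first; SD, n = 3; edgeR, adjusted p = 0.281), and D12 would stand at 7.76 ± 0.923 CPM in dYEATS2-IR and 7.74 ± 0.854 in its control (adjusted p = 1). The test of any difference among the 4 groups does not depend on the names, and it called 174 of the 562 tested LTR insertions (31.0%), where 19.6% of all tested rows were called.

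Libraries held 30298251 to 54132559 counts, of which 54247 to 125770 fell on LTR insertions (0.165% to 0.253% of a library). Levels are given in CPM, a row's counts per 1e6 of the library's scaled total. Of the 1304 insertions 276 had no count in any library, and 562 passed the filter on low counts and were tested among 12661 rows. A call is an adjusted p-value (false discovery rate, FDR) below 0.05 over all rows tested. Markers of neurons, photoreceptors, glia and fat body were present in every group. Summed neuron markers reached 3088 to 3844 CPM in NTC IR-1, 3725 to 4504 in dYEATS2-IR, 4847 to 6071 in NTC IR-2 and 5037 to 5798 in dENL/AF9-IR, so the controls did not overlap. Summed fat body markers reached 2788 to 3714 CPM in NTC IR-1, against 621 to 1572 in the other groups, and photoreceptor markers 26337 to 40053 CPM in NTC IR-1, against 33047 to 54672 elsewhere. The 9 germ line and testis markers summed to 9.67 to 11.2 CPM in NTC IR-1, against 3.54 to 8.94 elsewhere, with bam, a germ cell differentiation factor, at 0 counts in all libraries. The groups also differed in genes that mark fly chromosomes: w, for eye pigment transport, averaged 3746 CPM in dYEATS2-IR and 31.0 to 42.5 in the other groups, and y, for body pigment, 0.323 CPM in dYEATS2-IR, 44.0 in dENL/AF9-IR and 170 to 173 in the controls. Another such gene, v, averaged 19.9 CPM in NTC IR-1, 4.04 in dYEATS2-IR, 9.36 in NTC IR-2 and 5.07 in dENL/AF9-IR. It was called lower in dYEATS2-IR than in NTC IR-1 (log2 -2.30; edgeR, adjusted p = 0.0161). The part of these differences in the results below was not tested.

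LTR expression in heads was concentrated in a few families. copia gave 31.7% of all LTR counts and gypsy 21.4%, followed by Stalker2 with 7.41%, opus with 6.44%, flea with 4.63%, HMS-Beagle with 3.31%, accord with 2.82% and 297 with 2.74%. roo had the most insertions, 144, and 2.58% of the counts. gypsy and copia reached their shares in different ways. One insertion, gypsy{}615, held 87.4% of the gypsy counts, whereas the most abundant copia insertion held 8.57% of the copia counts.

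Long copies carried most of the counts. The 593 insertions of at least 4000 bp gave 94.95% of the LTR counts, and 81.6% of them were tested. This length does not show that a copy is complete. Of the 466 insertions under 500 bp, 3.43% were tested, and together they gave 1.06% of the counts. A short copy that stood out, chosen after its values were seen, was gypsy{}286 on chromosome 2L, with 4839 counts over 482 bp. Among the 32 copia copies of at least 4000 bp the summed count ran from 6727 to 27932, with a median of 8695. In contrast the 116 roo copies of that length ran from 11 to 2050, with a median of 172. Copies of a family can be nearly identical in sequence, and how reads that match several copies were counted is not given in the sources used here. The values of single insertions therefore depend on that choice, so each family was also tested as the sum of its rows.

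**Figure D1:**
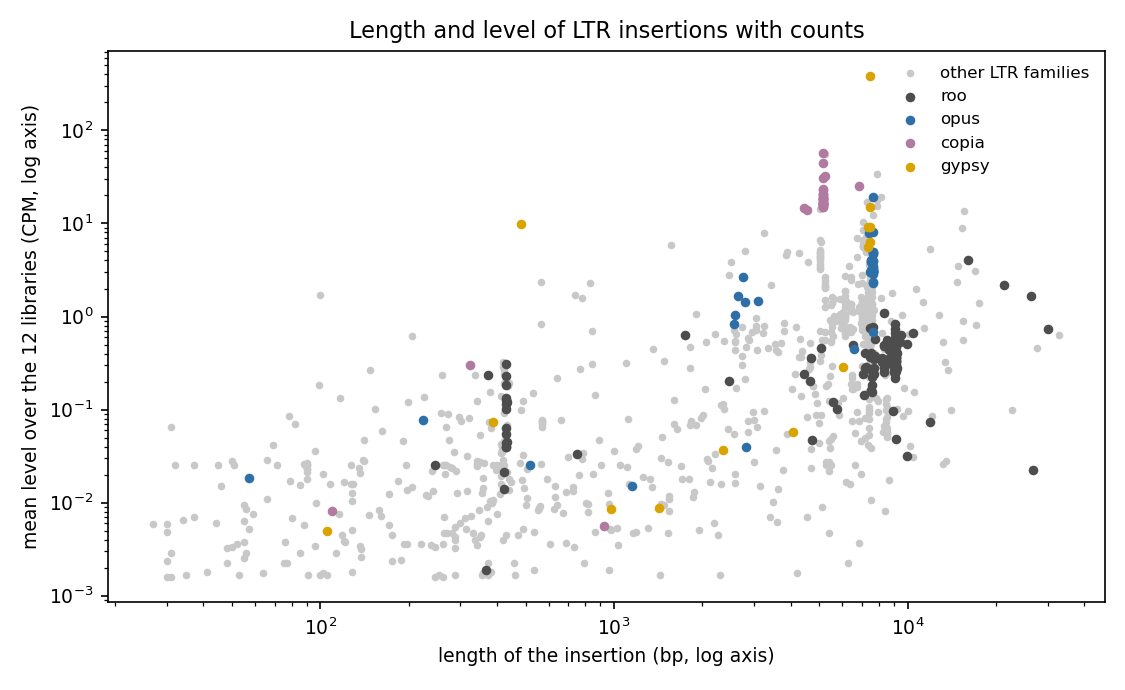
Each point is 1 LTR insertion with counts. The horizontal axis gives its annotated length in bp and the vertical axis its mean level over the 12 libraries in CPM, both on log axes. The long copia copies (purple) lie close together, with accord{}818 at 55.2 CPM level with the highest of them, roo (dark grey) lies lower, and gypsy{}615 is the single gold point at the top.

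Positions are those of the Ensembl annotation of the BDGP6 assembly. By position, 725 insertions lay outside annotated genes, 470 inside an intron and 106 touched an exon, and 3 were not matched to the annotation. Tested shares were 32.1% outside genes, 58.1% in introns and 52.8% at exons. In introns, 199 insertions had the direction of the host gene and 271 the opposite one, and 65.8% and 52.4% of them were tested. Since a host transcript also crosses its intronic insertions, their counts can include host reads. For insertions of the opposite direction this depends on the use of strand in counting, which is not given in the sources used here.

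The most abundant member was gypsy{}615, a 7466 bp copy on the minus strand of chromosome 2R (2R:5049217-5056682), outside genes and 8555 bp from TpnC41C. Its level was 550, 502 and 564 CPM in NTC IR-1, 259, 582 and 354 in dYEATS2-IR, and 431, 83.5 and 479 in NTC IR-2. The dENL/AF9-IR libraries held 268, 318 and 245 CPM. The second NTC IR-2 library lay far below its group, and dYEATS2-IR overlapped every other group. No comparison called it, with an adjusted p of 0.421 for any difference among the groups (edgeR). Next came copia{}1467, 5142 bp in an intron of Gprk2 on chromosome 3R (3R:31413145-31418286) and opposite to that gene, which encodes a G protein-coupled receptor kinase. It stood at 64.3 ± 9.02 CPM in NTC IR-1, 52.8 ± 3.11 in dYEATS2-IR, 62.2 ± 8.81 in NTC IR-2 as well as 47.5 ± 12.3 in dENL/AF9-IR (SD, n = 3), and the groups did not differ (edgeR, adjusted p = 0.199). The other copia insertions among the 10 most abundant members were copia{}293, copia{}920, copia{}387, copia{}1684, copia{}466 and copia{}67, at means of 23.1 to 44.9 CPM, and none was called in a pairwise comparison. The test of any difference among the groups called copia{}293, copia{}387 and copia{}67 (edgeR, adjusted p of 0.0241, 0.0376 and 0.0321). Gprk2, the host of copia{}1467, was itself called higher in dYEATS2-IR than in NTC IR-1 (log2 0.58; edgeR, adjusted p = 0.00482).

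Summed over all LTR insertions, the level was 2230, 2390 and 2615 CPM in NTC IR-1, against 1589, 2129 and 1753 in dYEATS2-IR. It was 2473, 2113 and 2240 CPM in NTC IR-2, against 1668, 1843 and 1891 in dENL/AF9-IR. Both knockdown groups thus lay below the control numbered with them with no overlap, by -0.41 and -0.34 on the log2 scale. Exact two-sided permutation tests gave p = 0.1 for both, the smallest value that 3 libraries against 3 allow. The controls overlapped (log2 -0.08, exact permutation p = 0.5), and without gypsy{}615 that small difference changed sign to 0.055. The gypsy share of LTR counts was 6.20% in the second NTC IR-2 library and 15.2% to 29.8% in the other 11.

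**Figure D2:**
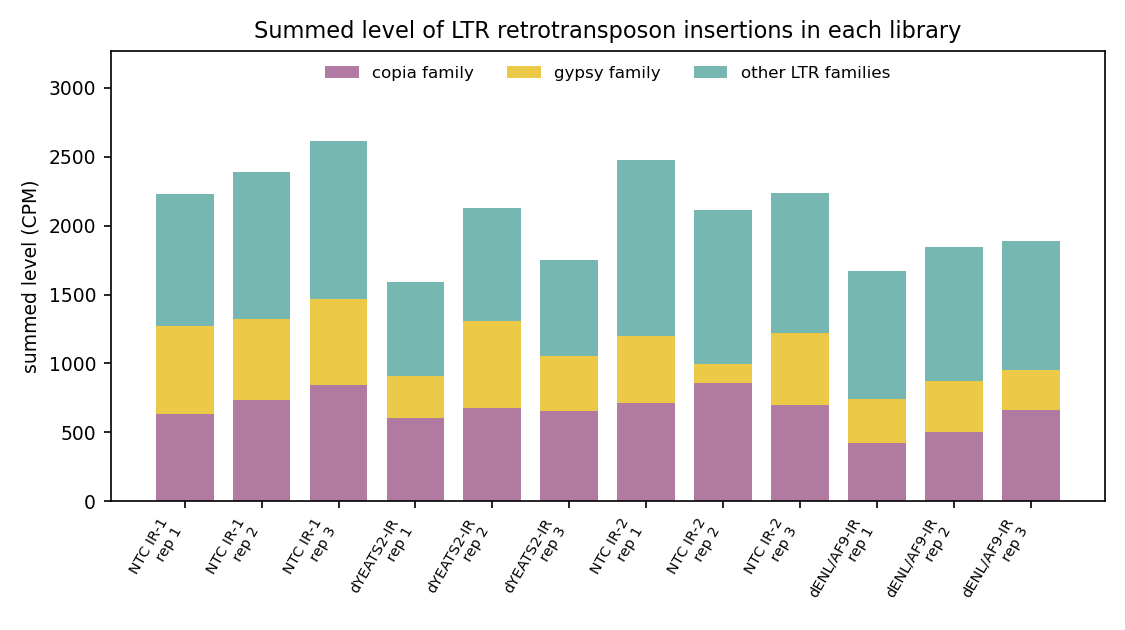
Bars give the summed level of all LTR insertions in each of the 12 libraries in CPM, divided into copia, gypsy and all other families. The totals of dYEATS2-IR and dENL/AF9-IR lie between 1589 and 2129 CPM and those of the controls between 2113 and 2615; the gypsy part is smallest in replicate 2 of NTC IR-2.

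The dYEATS2-IR libraries were compared with NTC IR-1, the control numbered with them. These groups differ in the hairpin and also in the levels of w, y and v given above. The part of each in the changes below was not tested. The calls comprised 100 of 562 LTR insertions (17.8%), beside 4.77% of all rows tested, 4.12% of genes, 32 of 454 insertions of other kinds and 0 of 178 insertions of INE-1, a short element without LTRs. Of the 100 calls 78 were lower in dYEATS2-IR and 22 higher, while all rows split evenly, with 2.42% higher and 2.35% lower. The median log2 fold change of the tested insertions was -0.40, beside -0.02 for all rows. The calls fell in 21 families, and opus, HMS-Beagle, diver, mdg3 and roo held 66 of them. As summed families 12 of 42 were called, 9 lower and 3 higher, beside 3.33% of all rows in that table (1.84% higher and 1.48% lower).

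The count of called insertions rested on most libraries of the comparison. It was 52 without the first and 46 without the second NTC IR-1 library, and 47, 55 and 59 without dYEATS2-IR library 1, 2 and 3. Of the 100, 44 were called in the full set and in every set with a library left out, among them all 10 of diver, 10 of mdg3, 9 of HMS-Beagle and 6 of opus. The family count moved between 9 and 13, and 9 of the 12 families were called in every such set. Under the names of the normalized table this comparison called 0 insertions and 0 families. It then uses the libraries that the count table labels dENL/AF9-IR and NTC IR-2.

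diver, a BEL/Pao element, had the largest fall of the called families after Tirant, which had far fewer counts. Its summed level was 26.8, 25.8 and 27.8 CPM in NTC IR-1, against 1.52, 1.83 and 1.65 in dYEATS2-IR. NTC IR-2 stood between them at 8.06, 7.05 and 8.76, as did dENL/AF9-IR at 3.21, 3.51 and 4.72. The 4 groups did not overlap. The fold change between dYEATS2-IR and NTC IR-1 was -4.01 ± 0.174 on the log2 scale (SE; edgeR, adjusted p = 1.89e-07), and all 10 tested copies were called lower, with a median of -3.79 and a range of -5.00 to -3.09. These copies were on 5 chromosome arms and may share reads, so they are not 10 separate observations of the change.

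The copy with the largest fall by this measure was diver{}RR48316, 6133 bp outside genes on the X (X:23056198-23062330). Its level was 4.93, 4.36 and 5.05 CPM in NTC IR-1, against 0.117, 0.124 and 0.196 in dYEATS2-IR (log2 -5.00; edgeR, adjusted p = 1.44e-05). diver{}782 on 2R (2R:8777967-8784099, 8534 bp from CG8746) had 158, 197 and 229 counts against 5, 5 and 4 (log2 -4.97, adjusted p = 3.35e-06). Inside an intron of dnr1, in the opposite direction, diver{}873 (2R:22580467-22586578) changed by -4.33, while dnr1 itself, which encodes an ubiquitin ligase of immune signalling, did not pass the test (log2 0.32, adjusted p = 0.302). diver{}926 on 3L (3L:4901183-4907314), 314 bp from hoka, changed by -3.91 (adjusted p = 0.000247).

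HMS-Beagle and opus, both gypsy-like, fell, with most of their tested copies called lower. HMS-Beagle summed to 92.7, 111 and 103 CPM in NTC IR-1, against 34.1, 45.9 and 39.0 in dYEATS2-IR, with NTC IR-2 at 61.8 to 81.0 and dENL/AF9-IR at 51.0 to 63.8. Its log2 fold change was -1.37 ± 0.141 (SE; edgeR, adjusted p = 0.000341), and 11 of 12 tested copies were called lower. The copy not called, HMS-Beagle{}4605, named after its value was seen, is annotated over 27676 bp and had a log2 fold change of -0.34.

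For opus, also known as nomad, the levels were 181, 188 and 170 CPM in NTC IR-1, against 65.3, 89.8 and 82.2 in dYEATS2-IR, again without overlap. The log2 fold change was -1.19 ± 0.193 (SE; edgeR, adjusted p = 0.00944), and 28 of 36 tested copies were called lower. That includes 4 copies on the Y chromosome, named after their values were seen, opus{}6549, opus{}6550, opus{}6551 and opus{}6552, with log2 fold changes of -1.13, -1.21, -1.19 and -1.14. They were the 4 called among the 10 tested insertions of the Y.

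accord has 1 tested copy, accord{}818, which makes up the family's counts and follows copia{}1467 in level. It is 5225 bp long and lies in an intron of CG17574 in the opposite direction (2R:12862330-12867554). Its level was 83.8, 90.9 and 116 CPM in NTC IR-1, against 26.5, 33.4 and 21.2 in dYEATS2-IR, a log2 fold change of -1.84 ± 0.232 (SE; edgeR, adjusted p = 0.00112). NTC IR-2 held 35.2, 35.5 and 50.9 CPM and dENL/AF9-IR 65.8, 61.8 and 40.9, so NTC IR-1 was higher than every other library. The host CG17574 averaged 18.9 CPM in NTC IR-1, against 16.3 in dYEATS2-IR (adjusted p = 0.353).

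roo, the family with the most copies, was also called lower. Its sum was 68.7, 76.1 and 68.2 CPM in NTC IR-1, against 35.4, 40.1 and 42.8 in dYEATS2-IR (log2 -0.85 ± 0.0877 SE; edgeR, adjusted p = 0.000341). Of 111 tested copies 107 had a log2 fold change below 0, and 7 were called lower. Burdock (log2 -1.04, adjusted p = 0.00389) and Transpac (log2 -0.86, adjusted p = 0.0123) were also called lower, at 9.58 to 10.8 against 18.5 to 25.1 CPM and at 11.7 to 14.4 against 19.3 to 29.4 CPM. invader4 was called lower too (log2 -1.12, adjusted p = 0.0191), at 1.95 to 2.78 against 3.70 to 5.81 CPM. The calls of Transpac and invader4 were lost with some libraries left out, Transpac without the second NTC IR-1 library or any dYEATS2-IR library (log2 -0.92 to -0.78), and invader4 without the first or second library of either group (log2 -1.07 to -1.01).

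Tirant, an element with an envelope gene, had hardly any counts in dYEATS2-IR. The family had 38, 46 and 52 counts in NTC IR-1, against 1, 1 and 2 in dYEATS2-IR, a ratio of 26.2 with an exact 95% interval of 9.99 to 97.4 that covers counting error only. In NTC IR-2 it had 123, 253 and 179 counts and in dENL/AF9-IR 100, 92 and 178. Libraries of dYEATS2-IR thus lay below all others, and those of NTC IR-1 below both remaining groups. edgeR called the family lower in dYEATS2-IR (adjusted p = 0.0014). Of its 25 insertions 1 was tested, Tirant{}481, 8205 bp in an intron of CG42238 (2L:21041189-21049393), with 8, 8 and 12 counts in NTC IR-1, against 1, 0 and 0 in dYEATS2-IR; it did not pass the test in this comparison (adjusted p = 0.0638).

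Against these falls, mdg3, Tabor and gypsy2 rose. mdg3, a gypsy-like element, summed to 34.7, 37.9 and 30.7 CPM in dYEATS2-IR and to 3.60 to 4.96 CPM in each of the other 9 libraries. Its log2 fold change was 3.17 ± 0.126 (SE; edgeR, adjusted p = 1.43e-07), and 10 of 11 tested copies were called higher. The copy not called, named after its value was seen, was mdg3{}5851, a 99 bp fragment in an intron of AGO3, with a log2 fold change of 0.13.

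Of the 5 insertions with the largest rises 4 were copies of mdg3. mdg3{}1060 on 3L (3L:20212660-20218179), 321 bp from CG6933, had 9, 8 and 6 counts in NTC IR-1, against 101, 102 and 99 in dYEATS2-IR (log2 4.05; edgeR, adjusted p = 4.28e-05). mdg3{}1283 lies in an intron of CG42795 (3R:10231837-10237356) and mdg3{}1351 in one of 2mit (3R:13143088-13148607), with log2 fold changes of 3.90 and 3.85. mdg3{}119 lies in an intron of Neto, a subunit of glutamate receptors at the neuromuscular junction, and in its direction (X:13463700-13469219), with a log2 fold change of 3.66. All 4 are annotated at 5520 bp. None of the 3 host genes was called, with log2 fold changes of 0.46, 0.14 and 0.30.

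Tabor summed to 1.09, 1.38 and 2.79 CPM in NTC IR-1, against 8.67, 6.81 and 5.50 in dYEATS2-IR (log2 1.98 ± 0.359 SE; edgeR, adjusted p = 0.015), and all 5 tested copies were called higher. Its call was lost without the first or second library of either group (log2 1.71 to 1.97). gypsy2 stood at 3.09, 3.51 and 2.95 CPM in NTC IR-1, against 6.24, 6.50 and 8.08 in dYEATS2-IR (log2 1.12, adjusted p = 0.00325), but NTC IR-2 at 7.34 to 9.55 and dENL/AF9-IR at 9.69 to 10.2 were higher still. NTC IR-1 was therefore the low group for gypsy2, whereas for mdg3 and Tabor dYEATS2-IR was the high one.

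**Figure D3:**
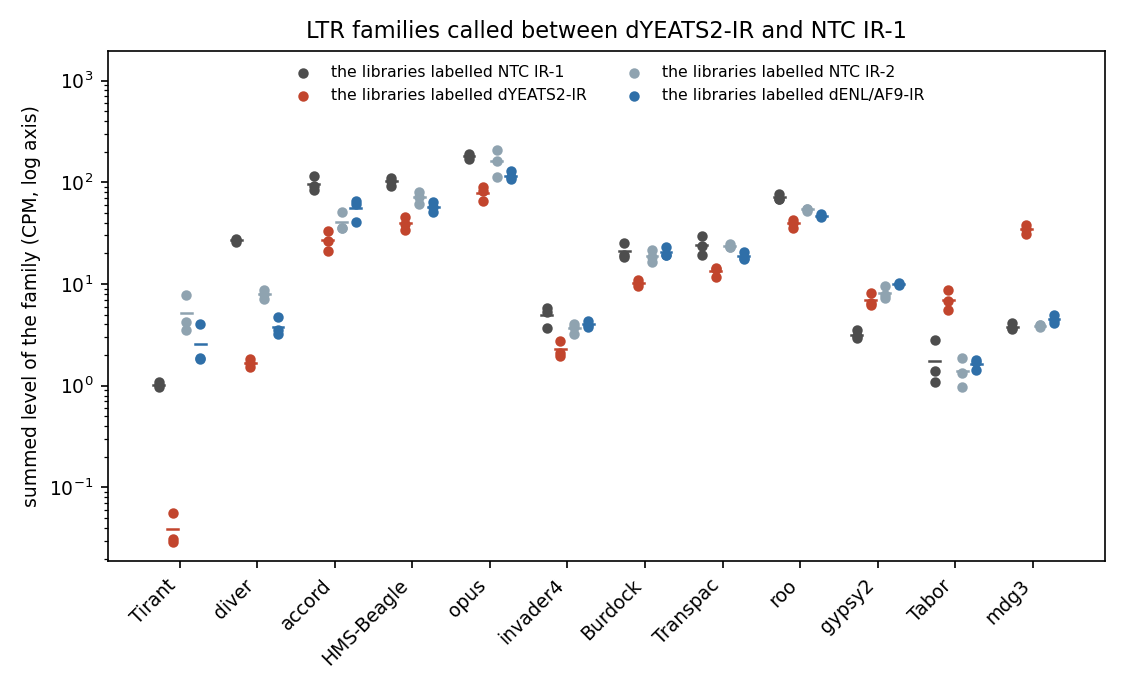
Summed levels in CPM on a log axis of the 12 LTR families called between dYEATS2-IR and NTC IR-1, ordered by fold change. Points are libraries, 3 to a group, and short lines are group means; mdg3 and Tabor are high in dYEATS2-IR, and diver falls from 25.8 to 27.8 CPM in NTC IR-1 to 1.52 to 1.83 in dYEATS2-IR.

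Several abundant families did not pass the test in this comparison. copia had 0 of 33 tested copies called and a family log2 fold change of -0.20 ± 0.165 (SE; edgeR, adjusted p = 0.532). For 297 the values were 0 of 53 copies and 0.17 ± 0.207 (adjusted p = 0.703), for flea 0 of 20 copies and -0.04 ± 0.214 (adjusted p = 0.935), and for Stalker2 0 of 11 copies and -0.31 ± 0.263 (adjusted p = 0.552). The gypsy family, led by gypsy{}615, was not called (log2 -0.47 ± 0.406, adjusted p = 0.551), while 3 of its 8 tested copies were called lower.

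A few insertions moved apart from their family, and these were chosen after their values were seen. 412{}1365, 7198 bp in an intron of CG42788 and in its direction (3R:15102553-15109750), stood at 1.68, 1.77 and 1.77 CPM in NTC IR-1, against 18.8, 15.6 and 11.4 in dYEATS2-IR. NTC IR-2 and dENL/AF9-IR held 0.936 to 1.77 CPM. Its log2 fold change was 3.13 ± 0.197 (SE; edgeR, adjusted p = 6.41e-06), beside a median of -0.58 for the 34 tested copies of 412. The host CG42788 was not called (log2 0.34, adjusted p = 0.1). blood{}RR48405, in an intron of Myo81F and in its direction (3R:805626-812770), had 6, 7 and 11 counts in NTC IR-1, against 91, 104 and 71 in dYEATS2-IR (log2 3.84, adjusted p = 0.00497), and the median of 26 blood copies was 0.13. It was as high in dENL/AF9-IR, with 145, 127 and 72 counts, and low in NTC IR-2, with 3, 9 and 43. Its host Myo81F, a myosin gene in pericentric heterochromatin, was also called higher (log2 1.00, adjusted p = 0.0342). Myo81F averaged 3.07 CPM in NTC IR-1, 6.16 in dYEATS2-IR, 12.8 in NTC IR-2 and 10.8 in dENL/AF9-IR. The host was thus highest in NTC IR-2, where the insertion was low.

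Another such insertion was Quasimodo{}3987, annotated over 17552 bp on 3L (3L:20324793-20342344), 290 bp from Spn77Bc and overlapping 3 other annotated elements. It held 0.293, 0.574 and 0.354 CPM in NTC IR-1, against 1.64, 1.27 and 1.85 in dYEATS2-IR (log2 1.95; edgeR, adjusted p = 0.00497). NTC IR-2 at 1.80 to 1.99 CPM and dENL/AF9-IR at 1.38 to 1.89 were high as well, so the low group was NTC IR-1.

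invader4{}1639, a 2202 bp copy on 2L (2L:20170364-20172565), was the one member with no count in all 3 libraries of a group and a mean of at least 50 counts in another. It had 70, 78 and 34 counts in NTC IR-1, 0, 0 and 0 in dYEATS2-IR, and 0, 0 and 36 in NTC IR-2. The dENL/AF9-IR libraries had 47, 55 and 38 counts. Against the floor of 3 counts in each dYEATS2-IR library its level was at least 15.97-fold lower in dYEATS2-IR than in NTC IR-1 (edgeR, adjusted p = 0.0412). That call was lost without the first or second NTC IR-1 library or any dYEATS2-IR library, with adjusted p up to 0.134, while the fitted log2 value, which depends on the prior count, stayed between -9.16 and -8.63. The third NTC IR-2 library had counts on this row and the other NTC IR-2 libraries had none.

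**Figure D4:**
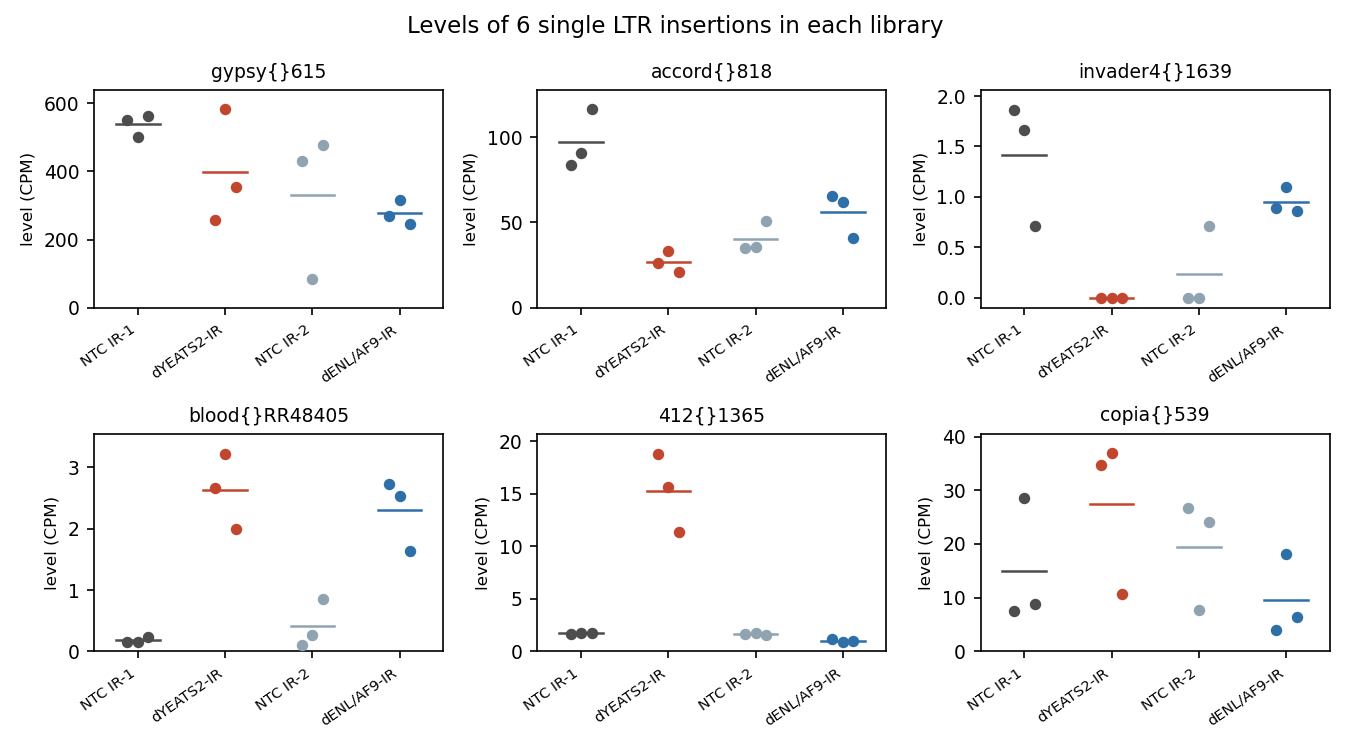
Levels in CPM of 6 single insertions in each library, by group, with lines at the group means. 412{}1365 is high in dYEATS2-IR, blood{}RR48405 in dYEATS2-IR and dENL/AF9-IR, invader4{}1639 has no count in 5 libraries, and copia{}539 has both high and low libraries in every group.

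copia{}539, 5144 bp in an intron of Ir40a, a receptor gene of the antenna (2L:22201408-22206551), varied within groups rather than between them, and was chosen after its values were seen. It stood at 7.54, 28.6 and 8.78 CPM in NTC IR-1, 34.7, 36.9 and 10.7 in dYEATS2-IR, 26.7, 7.72 and 24.1 in NTC IR-2 as well as 3.98, 18.1 and 6.47 in dENL/AF9-IR. The highest library of a group exceeded the lowest by 3.45 to 4.54 times. Of the 133 insertions with a mean of at least 100 counts it was the 1 whose libraries differed more than 2-fold within each of the 4 groups. The host Ir40a averaged 0.0731 to 0.161 CPM.

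The dENL/AF9-IR libraries were set against NTC IR-2 in the same way. No LTR insertion and no LTR family was called by edgeR, and 0.0% of all tested rows were. Without adjustment 134 of the 562 insertions had p below 0.05, beside 661 of all 12661 rows, and DESeq2's Wald test called 3 insertions and 4 families. The smallest adjusted p of an insertion was 0.373. diver came closest among the families, with 3.21 to 4.72 CPM in the dENL/AF9-IR libraries and 7.05 to 8.76 in those of NTC IR-2. Its log2 fold change was -1.07 ± 0.155 (SE; edgeR, adjusted p = 0.0808). All 10 of its tested copies had a log2 fold change below 0, with a range of -1.25 to -0.76. For mdg1 the family value was -0.88 ± 0.169 (adjusted p = 0.211) and for springer 1.11 ± 0.21 (adjusted p = 0.211). copia stood at 422, 502 and 664 CPM in dENL/AF9-IR and 698 to 861 in NTC IR-2 (log2 -0.52 ± 0.166, adjusted p = 0.897), and the groups did not overlap. mdg3 differed by 0.20 ± 0.12 (adjusted p = 1). Without the third NTC IR-2 library 2 insertions and 2 families were called, and 1 family was called without the third dENL/AF9-IR library. Under the names of the normalized table this comparison called 100 insertions, 78 of them higher, and 12 families. It then uses the libraries that the count table labels NTC IR-1 and dYEATS2-IR. These are therefore the calls of the dYEATS2-IR comparison above, with the sign turned.

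NTC IR-2 versus NTC IR-1 compares the non-targeting controls. The called LTR insertions numbered 81 of 562 (14.4%), beside 19.5% of all rows. Of the insertions 48 were higher and 33 lower in NTC IR-2, beside 10.3% and 9.16% of all rows. The median log2 fold change was -0.07, and -0.04 for all rows. Of the 42 families 16 were called, 8 higher and 8 lower, beside 19.5% of the rows of that table (10.3% higher and 9.19% lower). NTC IR-1 is the baseline here as in the dYEATS2-IR comparison, so a value particular to NTC IR-1 enters both. Calls of insertions numbered 43 without the first and 47 without the second NTC IR-1 library, and 50 without the second NTC IR-2 library, and 10 families were called without the second NTC IR-1 library.

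The higher families included Stalker2, Stalker, Stalker4 and mdg1, all gypsy-like. Stalker2 summed to 79.6, 97.7 and 153 CPM in NTC IR-1, against 392, 254 and 203 in NTC IR-2 (log2 1.36 ± 0.267 SE; edgeR, adjusted p = 0.00734), and 8 of 11 tested copies were called higher. Its most abundant copy, Stalker2{}1255, lies outside genes (3R:7729521-7737401), with 15.7, 22.2 and 29.5 CPM against 96.1, 56.8 and 44.9. Stalker (log2 1.08, adjusted p = 0.00263) had 5 of 9 copies called higher and Stalker4 (log2 0.73, adjusted p = 0.00735) 4 of 7. mdg1 stood at 12.5 to 15.2 CPM in NTC IR-1, against 25.4 to 42.4 in NTC IR-2 (log2 1.31 ± 0.171 SE, adjusted p = 0.00172), with 16 of 26 copies called higher. dYEATS2-IR was at 16.2 to 19.8 CPM and dENL/AF9-IR at 17.0 to 19.7, so NTC IR-2 was the high group for mdg1.

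Among the largest rises by the same measure were Tirant{}481 (log2 2.90), mdg1{}900 in an intron of Glut1 (3L:925231-932599, log2 2.85), gypsy12{}5117 (2R:4814335-4814898, log2 2.72), mdg1{}2137 (log2 2.65) and Quasimodo{}3987 (log2 2.22). mdg1{}2137 is a 1477 bp copy inside lncRNA:flam (X:21687766-21689242), the flamenco locus whose transcript is cut into piRNAs against gypsy-like elements in the ovary. It had 3, 7 and 6 counts in NTC IR-1, against 29, 26 and 26 in NTC IR-2 (edgeR, adjusted p = 0.00807). lncRNA:flam itself averaged 0.113 CPM in NTC IR-1, against 0.133 in NTC IR-2, and was too low to be tested. The call of Tirant{}481 was lost without the first or second NTC IR-1 library or the second NTC IR-2 library (log2 2.12 to 2.89).

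As a family Tirant rose by 2.33 ± 0.383 (SE; edgeR, adjusted p = 0.00368), gypsy2 by 1.37 (adjusted p = 0.00103), gypsy5 by 1.39 (adjusted p = 0.0146) and rover by 0.58 (adjusted p = 0.0234). The calls of gypsy5 and rover were lost without the first or second NTC IR-1 library, and that of rover also without the second NTC IR-2 library (log2 0.43 to 1.43 for both).

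diver was the family with the largest fall between the controls, by -1.75 ± 0.154 (SE; edgeR, adjusted p = 0.000194), with all 10 tested copies called lower and a range of -2.58 to -1.04. accord fell by -1.26 (adjusted p = 0.00526), roo by -0.39 (adjusted p = 0.0121) and HMS-Beagle by -0.52 (adjusted p = 0.0254). springer (log2 -0.72), invader3 (log2 -0.80), McClintock (log2 -1.15) and gypsy4 (log2 -1.41) were called lower at adjusted p of 0.021 to 0.0404. Leaving out the second NTC IR-1 library ended the calls of HMS-Beagle, springer, invader3, McClintock and gypsy4. The calls of HMS-Beagle, springer, invader3 and McClintock were also lost without the second NTC IR-2 library, and those of HMS-Beagle, springer, invader3 and gypsy4 without the third. springer, McClintock and gypsy4 lost theirs without the first NTC IR-1 library as well, springer and McClintock without the third, and McClintock without the first NTC IR-2 library. With single libraries left out the log2 values ranged from -0.61 to -0.43 for HMS-Beagle, -0.88 to -0.60 for springer, -0.86 to -0.75 for invader3, -1.49 to -0.99 for McClintock and -1.61 to -1.27 for gypsy4.

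By single insertions the largest falls between the controls were McClintock{}1478 (log2 -3.63), invader4{}1541 (log2 -3.15), rooA{}5181 (log2 -2.64), diver{}RR48316 (log2 -2.58) and diver{}782 (log2 -2.56). McClintock{}1478 lies in an intron of the pseudogene CR32010 on chromosome 4 (4:13649-20086). It had 14, 21 and 26 counts in NTC IR-1, against 0, 1 and 3 in NTC IR-2, a ratio of 12.9 with an exact 95% interval of 4.8 to 49 for counting error. invader4{}1541 (4:910399-913480) overlaps an exon with untranslated sequence of unc-13, a synaptic vesicle priming factor, with 46, 40 and 19 counts against 0, 2 and 9. rooA{}5181 (2R:4855816-4869276) had 20, 51 and 17 counts against 6, 2 and 3. The calls of invader4{}1541 and rooA{}5181 were lost without the first or second NTC IR-1 library or the second NTC IR-2 library, and that of rooA{}5181 also without the third, with adjusted p up to 0.0985 and 0.106. Their log2 values ranged from -4.55 to -2.68 and from -3.39 to -2.06.

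**Figure D5:**
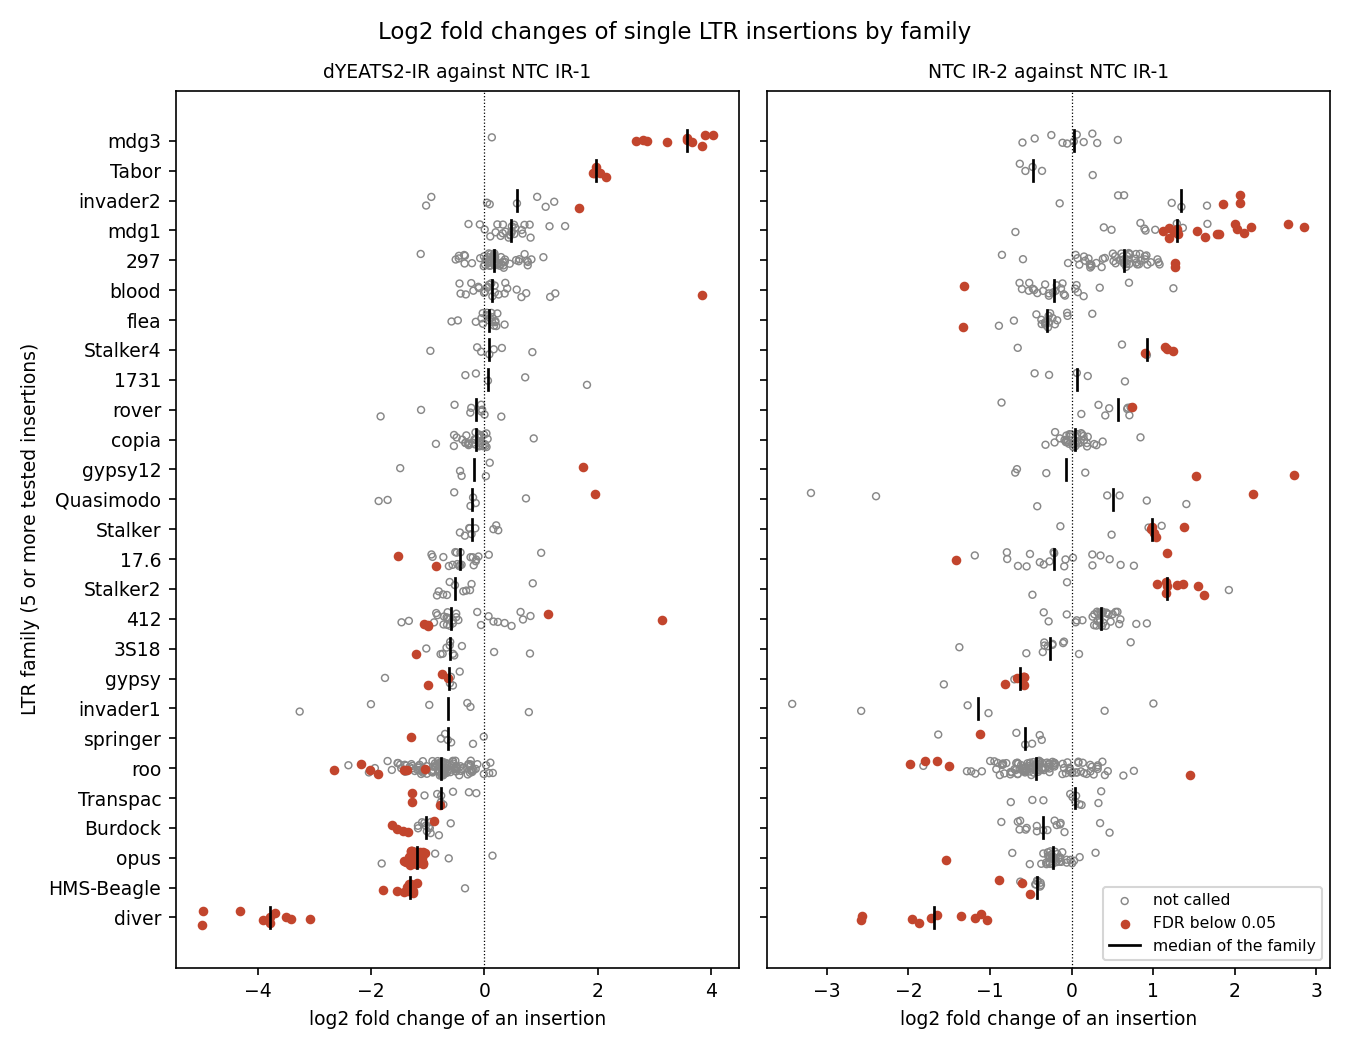
Each point is a tested insertion of a family with 5 or more tested copies, placed by its log2 fold change in dYEATS2-IR versus NTC IR-1 (left) and in NTC IR-2 versus NTC IR-1 (right). Filled red points were called and black lines mark family medians; copies of diver, HMS-Beagle, opus, mdg3 and Tabor lie together on the left, and both panels share the NTC IR-1 libraries.

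Whether the changes in the knockdown groups differed was tested directly, as the dYEATS2-IR change minus the dENL/AF9-IR change. This called 32 LTR insertions, 14 with a higher and 18 with a lower value, where 0.932% of all rows were called (0.434% higher and 0.498% lower). It also called 10 of 42 families, 2 higher and 8 lower, where 0.692% of rows were called (0.288% higher and 0.404% lower). For diver the changes were -4.01 and -1.07 (log2), and their difference of -2.94 passed the test (edgeR, adjusted p = 5.55e-05). mdg3 changed by 3.17 and 0.20 (difference 2.97, adjusted p = 5.85e-06). HMS-Beagle, accord, roo, Burdock, springer, 3S18 and Tirant had lower values in the dYEATS2 comparison, and mdg1 a higher one. Both controls enter this test, so a value particular to either of them enters the difference. NTC IR-1 was the high group for accord and NTC IR-2 for mdg1. opus, with changes of -1.19 and -0.48, did not pass this test (difference -0.70 ± 0.269 SE, adjusted p = 0.281), and neither did Tabor (difference 1.75 ± 0.504, adjusted p = 0.175). Without single libraries the counts of insertions were 16 to 37 and those of families 3 to 12. They were 16 and 18 insertions without the first or second NTC IR-1 library, 18 and 20 without the first or second dYEATS2-IR library, 18 without the second NTC IR-2 library, and 16, 17 and 19 without dENL/AF9-IR library 1, 2 or 3. The family count was 3 to 6 without each library but the third of NTC IR-1 and the first of NTC IR-2.

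Host genes of called insertions were described in the same fits. In dYEATS2-IR versus NTC IR-1, 49 called insertions lay in a gene that was itself tested; for 5 of them (10.2%) the host was called, beside 4.12% of all genes, and for 1 in the direction of the insertion. In NTC IR-2 versus NTC IR-1 there were 33 such insertions. The host was called for 11 (33.3%), beside 20.1% of all genes, and for 8 in the same direction. By place, 20.6% of tested insertions outside genes, 15.8% of those in introns and 16.1% of those at exons were called in dYEATS2-IR versus NTC IR-1. In introns the shares were 16.03% in the direction of the host and 15.5% in the opposite one. By chromosome the called share was 13.2% on the X and 22.1% on 3R. It was 0% of 10 tested insertions on chromosome 4 and 40% of 10 on the Y.

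A list of genes known to restrain retrotransposons, or derived from them, was described in the same fits. Of 63 listed symbols 58 had a row and 52 were tested, which covered the piRNA and siRNA pathways, H3K9 methylation, insulator proteins and domesticated gag genes. In dYEATS2-IR versus NTC IR-1, 1 was called higher and 2 lower (5.77%, beside 4.77% of all rows), and the median log2 fold change was 0.05, with -0.02 for all rows. These were AGO3, a piRNA-guided slicer (2.09 to 0.482 CPM, log2 -2.10; edgeR, adjusted p = 0.042), Arc2, a domesticated retrotransposon gag gene (9.70 to 3.04 CPM, log2 -1.67, adjusted p = 0.034), and CTCF, an insulator protein (24.5 to 33.2 CPM, log2 0.44, adjusted p = 0.049). AGO2, the siRNA-guided slicer of somatic tissue, stood at 136 CPM in NTC IR-1, against 165 in dYEATS2-IR (log2 0.28, adjusted p = 0.142). piwi, the nuclear piRNA effector, was at 2.40 and 0.876 CPM (adjusted p = 0.242), and egg, an H3K9 methyltransferase, at 21.2 and 23.8 CPM (adjusted p = 0.349). In dENL/AF9-IR versus NTC IR-2 none was called by edgeR.

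Between the controls 7 of the 52 were called (13.5%, beside 19.5% of all rows), and NTC IR-2 was the higher group for 4 and the lower for 3. AGO1, the microRNA effector (321 to 461 CPM), r2d2, the partner of Dicer-2 (15.3 to 19.5 CPM), ctp, a dynein light chain found in a piRNA silencing complex (616 to 1096 CPM), and Trf2, a promoter factor (96.1 to 128 CPM), were higher. AGO3 (2.09 to 0.482 CPM), nxf2, of the nuclear piRNA silencing complex (2.26 to 0.578 CPM), and Arc2 (9.70 to 4.12 CPM) were lower. Beside AGO3 and nxf2 stand the germ line and testis markers, whose sum was also highest in NTC IR-1; the part of that difference was not tested.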

How the data were processed

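Poly(A)-selected RNA of fly heads was sequenced (TruSeq Stranded mRNA, per the labels' protocols). The submitters' processing notes name FastQC 0.12.0, Trim Galore 0.6.5, HISAT2, SAMtools, UMI-tools, Picard and DESeq2, and the builds BDGP6 and dm6. The authors deposited a table of whole-number counts per gene and element, which was used, and a table of normalized signal (counts divided by a constant per column; the processing notes name DESeq2), used to compare names. The counting program, its use of strand and its treatment of reads matching several copies are not given in the sources used here. Libraries were assigned by the library names in the table header; the labels of 2 NTC IR-2 libraries also name columns of other libraries.

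Counts were fitted with edgeR 4.0.16 (R 4.3.3; TMM scaling, filterByExpr, a mean per group over all 12 libraries, 8 residual degrees of freedom, quasi-likelihood test, Benjamini-Hochberg adjustment over all rows tested). A second fit replaced the LTR rows by family sums (12141 rows tested). The fit with insertions as rows was tested on simulated data, and the fit with family sums was not. Summed CPM were compared by exact permutation tests. Positions and neighbours come from the Ensembl annotation of BDGP6. Alternatives were other scaling (DESeq2 1.42.0 size factors), filters, DESeq2's Wald test, a replicate block, fewer libraries and the names of the normalized table.

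The members, gene lists and rules were chosen with earlier results of these data known. Named were the 10 most abundant insertions, the 5 largest rises and falls per comparison among called insertions without overlap that averaged 10 or more counts in a group, insertions at 0 in a group that averaged 50 or more counts in another, the 8 most abundant families and every called family. That the replicates came from separate flies is not stated beyond 50 heads each, so p-values measure the spread between these libraries.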

Additional observations from a re-analysis of the deposited data

Results flagged for a closer look

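The change in dYEATS2-IR versus NTC IR-1 was set against the change in dENL/AF9-IR versus NTC IR-2 by a contrast of both (edgeR's quasi-likelihood test, log2 difference, adjusted over all rows tested). Both controls enter this contrast, so a value particular to either of them enters the difference. The results below passed this test with all libraries. With single libraries left out the contrast called 16 to 37 insertions and 3 to 12 families, so the number of calls depends on the libraries used. Each such fit has fewer samples, and the part of that in the lost calls was not tested. The same values depend on which table's names are right.

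Among families the difference was negative for Tirant (-3.61, adjusted p = 0.0425), diver (-2.94, adjusted p = 5.55e-05), accord (-2.32, adjusted p = 0.00683), springer (-1.85, adjusted p = 0.0174), 3S18 (-1.56, adjusted p = 0.0428), Burdock (-1.16, adjusted p = 0.0286), HMS-Beagle (-1.05, adjusted p = 0.0392) and roo (-0.64, adjusted p = 0.0425). It was positive for mdg3 (2.97, adjusted p = 5.85e-06) and mdg1 (1.27, adjusted p = 0.0392). By mean, mdg1 stood at 33.5 CPM in NTC IR-2 and at 13.5 to 18.3 in the other groups. For accord the mean was 97.1 CPM in NTC IR-1 and 27.0 to 56.2 in the other groups. springer and 3S18 were called in neither knockdown comparison, with changes of -0.74 and -0.72 in dYEATS2-IR and 1.11 and 0.84 in dENL/AF9-IR.

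Among single insertions it was -3.88 for diver{}RR48316 (adjusted p = 0.00229), -3.73 for diver{}782 (adjusted p = 0.000827), -3.19 for diver{}873 (adjusted p = 0.00303) and -2.90 for diver{}926 (adjusted p = 0.0311). It was 3.53 for mdg3{}1060 (adjusted p = 0.00412), 3.53 for mdg3{}1283 (adjusted p = 0.00378), 3.84 for mdg3{}1351 (adjusted p = 0.00528) and 3.52 for mdg3{}119 (adjusted p = 0.00237). 412{}1365 differed by 3.84 (adjusted p = 4.26e-05) and Quasimodo{}3987 by 2.16 (adjusted p = 0.0318). For Quasimodo{}3987 the low group was NTC IR-1, at a mean of 0.407 CPM. Its means were 1.59 in dYEATS2-IR, 1.92 in NTC IR-2 and 1.66 in dENL/AF9-IR.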

How the results depend on the processing

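The names of the libraries decide most. Under the names of the normalized table dYEATS2-IR versus NTC IR-1 called 0 insertions and 0 families, dENL/AF9-IR versus NTC IR-2 called 100 and 12, the difference of both effects called 62 insertions, and the summed level in dENL/AF9-IR versus NTC IR-2 differed by 0.41 (log2) in place of -0.34. NTC IR-2 versus NTC IR-1 then called 120 insertions, 21 higher and 99 lower. Under the exchanged names dYEATS2-IR versus NTC IR-1 uses the libraries that the count table labels dENL/AF9-IR and NTC IR-2. In turn dENL/AF9-IR versus NTC IR-2 uses those labelled NTC IR-1 and dYEATS2-IR. Its 100 insertions and 12 families are therefore the calls of dYEATS2-IR versus NTC IR-1 above, with the sign turned. The controls are then the libraries labelled dYEATS2-IR and NTC IR-2. In all, 25 named values changed sign (log2). In dYEATS2-IR versus NTC IR-1 they were invader4{}1639 (1.84), Quasimodo{}3987 (-0.21), 412{}1365 (-0.70), accord (0.47), Burdock (0.12) and invader4 (0.11). Between the controls they were McClintock{}1478 (2.28), invader4{}1541 (2.45), rooA{}5181 (1.69), Tirant{}481 (-6.96), mdg1{}900 (-2.03), gypsy12{}5117 (-0.98), mdg1{}2137 (-1.94), Quasimodo{}3987 (-0.28), Stalker2 (-1.66), Stalker (-1.21), mdg1 (-0.91), rover (-0.72), Stalker4 (-0.79), gypsy2 (-0.25), gypsy5 (-0.99), Tirant (-6.94), invader3 (0.20), McClintock (0.32) and gypsy4 (0.38).

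With single libraries left out, called insertions ranged from 46 to 98 in dYEATS2-IR versus NTC IR-1, 0 to 2 in dENL/AF9-IR versus NTC IR-2, 43 to 98 between the controls, 16 to 37 for the difference of effects and 107 to 184 for any difference. Called families ranged from 9 to 13, 0 to 2, 10 to 19, 3 to 12 and 18 to 28 in the same order. With only the 6 libraries compared, a fit with fewer samples, dYEATS2-IR versus NTC IR-1 called 72 insertions and 9 families. The controls then differed in 42 insertions and 9 families. DESeq2's Wald test called 3 insertions and 4 families in dENL/AF9-IR versus NTC IR-2 and 56 insertions for the difference of effects; the cause was not tested. With insertions outside genes alone, 4 families were called for the difference of effects. Without gypsy{}615 the controls' summed level differed by 0.055.

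Replicate numbers do not pair the libraries: same-numbered libraries correlated at -0.23 to 0.21 in their deviations, with 1 of 18 pairs above 0.1. With the replicate block 76 insertions were called in dYEATS2-IR versus NTC IR-1, 68 between the controls, and 20 insertions and 4 families for the difference of effects. DESeq2 size factors and leaving out mitochondrial rows kept the call and direction of all 50 named values, and dropping the filter that of 48. Low counts limit single copies, most of which were not tested.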
